A study of Mus musculus with 4 samples.

Results

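The 9 genes that lie around Cyfip2 on mouse chromosome 11 were followed in nuclei of the hippocampus, to ask whether transcripts near an edited gene differ between mice that carry the edit and mice that do not. The genes were Ebf1, Clint1, Lsm11, Thg1l, Adam19 and Nipal4 on the lower-coordinate side of Cyfip2, and Med7, Havcr2 and Sgcd on the higher side. They were chosen by position and name, and they are 9 of the 32285 genes in the count matrices. The animals were 2 wild-type (WT) mice and 2 mice with 1 Cyfip2 allele changed at R87C (Cyfip2+/R87C, knock-in, KI), and each mouse gave 1 library of single nuclei from both hippocampi. All were on the C57BL/6N background and at postnatal week 28 by the study's account, the KI mice are heterozygous, and the line was made in earlier work whose details were not used here. The labels give all libraries the same batch. The p-values rest on the spread between 2 mice per genotype, moderated by variance estimates pooled over all genes tested. For KI replicate 2 the treatment label names R88C where its protocol names R87C; its genotype label places it in KI, where it stayed. Each value is a count of unique molecular identifiers (UMIs, each 1 captured transcript), given as CPM, the count scaled so that all UMIs of each library and cell class add up to the same total.

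Cyfip2 encodes a subunit of the WAVE complex, which drives the branching of actin filaments. A change made in a gene can in principle alter the transcription of its neighbours on the same chromosome, because genes share enhancers, insulators and chromatin domains. A chromosome bred from an edited founder also carries a stretch of linked DNA around the edit, so the neighbours are the genes in which an effect in cis, that is on the same chromosome copy, would be sought. The counts add up both copies of a chromosome and cannot tell them apart.

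Positions are on chromosome 11 of GRCm38, from GENCODE M21. Cyfip2 (ENSMUSG00000020340) spans 46193850 to 46312859 on the minus strand. Nipal4 (ENSMUSG00000020411, 46148155 to 46166508, minus) is the nearest member, with a gap of 27.3 kb. Adam19 (ENSMUSG00000011256, 46055992 to 46147343, plus) follows at 46.5 kb, and Med7 (ENSMUSG00000020397, 46436925 to 46442721, plus) and Havcr2 (ENSMUSG00000020399, 46454935 to 46481255, plus) lie at 124 and 142 kb. Thg1l (ENSMUSG00000011254, 45946843 to 45955494, minus), Lsm11 (ENSMUSG00000044847, 45928269 to 45944935, minus) and Clint1 (ENSMUSG00000006169, 45852051 to 45910625, plus) stand together at 238, 249 and 283 kb. The 2 large genes are the farthest. Sgcd (ENSMUSG00000020354, 46896253 to 47988969, minus) is 1093 kb long and its nearer end is 583 kb away, and Ebf1 (ENSMUSG00000057098, 44617317 to 45008091, plus) is 391 kb long with a gap of 1186 kb. Other annotated genes overlap Ebf1 (Gm12158), Adam19 (Gm16033 and Gm16034) and Cyfip2 (Fndc9), each on the opposite strand.

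The start regions of Sgcd, Adam19 and Havcr2 are shown because the comparison of the genotypes turns on these members. Each run is 300 bases of RefSeq sequence on GRCm38.p6, read 5′ to 3′ on the strand of the gene, from 250 bases before to 50 after an annotated start. Capitals mark GGGCGG, a GC box of the kind bound by Sp1, in Sgcd and Adam19, and GAGGAAGT, a letter match for a PU.1 and ETS factor site, in Havcr2. Both strands were searched. The regions are chr11:47379276-47379575 (minus) for Sgcd, chr11:46055734-46056033 (plus) for Adam19 and chr11:46454681-46454980 (plus) for Havcr2.
Sgcd: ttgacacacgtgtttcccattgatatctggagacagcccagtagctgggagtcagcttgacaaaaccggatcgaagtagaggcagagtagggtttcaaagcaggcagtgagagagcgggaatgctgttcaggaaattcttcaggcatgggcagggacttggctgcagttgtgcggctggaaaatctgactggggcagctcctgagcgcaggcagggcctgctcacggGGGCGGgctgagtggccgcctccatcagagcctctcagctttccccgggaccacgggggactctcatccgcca
Adam19: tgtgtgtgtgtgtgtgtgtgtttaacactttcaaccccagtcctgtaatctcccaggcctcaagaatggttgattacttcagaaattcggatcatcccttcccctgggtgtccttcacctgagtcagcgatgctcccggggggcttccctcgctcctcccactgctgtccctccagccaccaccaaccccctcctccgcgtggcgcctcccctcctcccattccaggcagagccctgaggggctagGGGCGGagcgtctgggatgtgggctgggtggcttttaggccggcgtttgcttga
Havcr2: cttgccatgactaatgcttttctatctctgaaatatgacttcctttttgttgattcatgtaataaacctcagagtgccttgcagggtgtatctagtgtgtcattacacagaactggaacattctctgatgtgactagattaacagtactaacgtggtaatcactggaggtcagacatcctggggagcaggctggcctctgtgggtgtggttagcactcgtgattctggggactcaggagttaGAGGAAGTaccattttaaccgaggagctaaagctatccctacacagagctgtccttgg
Of the 10 genes, Cyfip2 included, 9 had a start region in the RefSeq table, the exception being Clint1. GGGCGG on either strand occurs in 35.7% of the 32851 start regions in that table, and GAGGAAGT in 3.20%. The Sgcd region also holds CACGTG, written in lower case, as do 7.15% of all regions. The RefSeq start of Sgcd lies 610 kb inside the outer end of the GENCODE gene, so it is not the start of the longest annotated transcript. The table holds 2 further start regions of Adam19, neither with GGGCGG on either strand. A match of letters is a description and not a bound site.

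The libraries held 12565 to 16000 nuclei with at least 500 genes and 72951460 to 80875469 UMIs in these nuclei. The nuclear transcript Malat1 took 8.71% to 8.89% of UMIs in WT and 12.1% to 13.7% in KI. Libraries shared 40 to 67 cell barcodes per pair. Nuclei were grouped by clustering without the 9 genes and Cyfip2, and clusters were named from marker genes, so that a class holds nuclei with the markers of that cell type. Of the named classes, 14 had at least 20 nuclei in every library and were tested.

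Over all nuclei, no member differed between KI and WT past the threshold, an adjusted p of 0.05 (edgeR, quasi-likelihood test, adjusted by Benjamini-Hochberg over 21925 genes). All 9 members passed the filter on low counts, 0 were called, and over all genes 0.771% were called (169 genes). DESeq2 called 1 member, Havcr2, and 8.57% of all genes. An unadjusted p below 0.05 was seen in 2 members, Havcr2 and Sgcd, against 24.4% of all genes. The KI and WT libraries did not overlap for 3 members (Sgcd and Havcr2 higher in KI, Clint1 lower), against 61.5% of all genes tested. The median log2 fold change of the members was -0.0048, beside 0.012 for all genes. In sums over all nuclei, fewer cells of a type and less RNA per cell cannot be told apart.

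**Figure D1:**
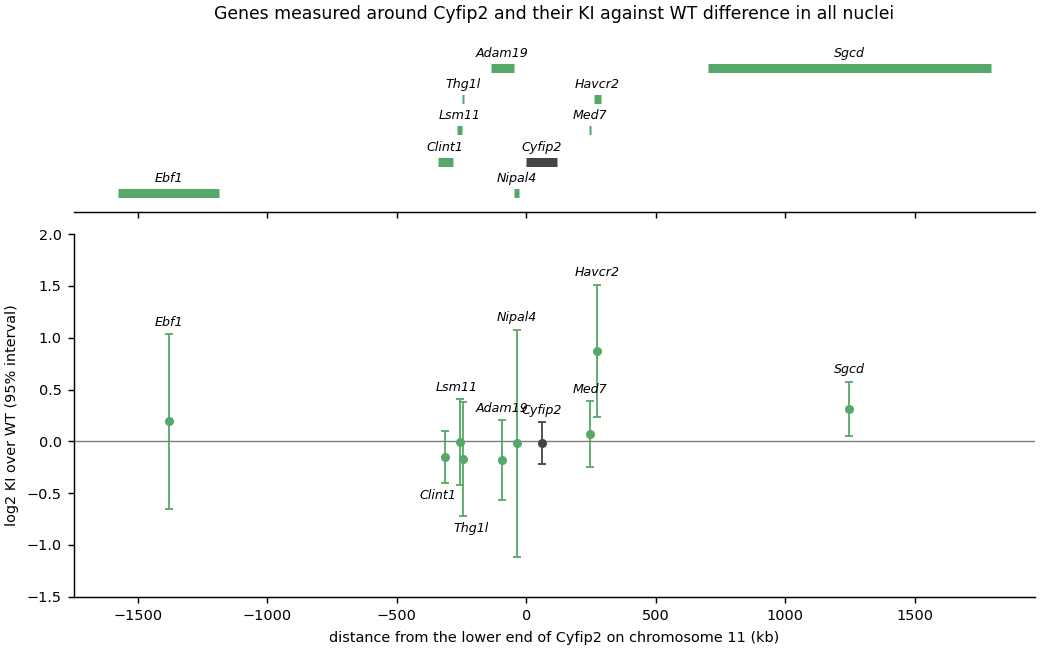
The upper panel draws the 9 genes (green) and Cyfip2 (dark) to scale by distance in kb from the lower end of Cyfip2, and the lower panel gives each gene's log2 KI over WT in all nuclei with its 95% interval (n = 2 libraries per genotype), placed at the middle of the gene. The intervals of Havcr2 (0.24 to 1.51) and Sgcd (0.05 to 0.58) lie above 0 before adjustment, and those of the other genes include 0.

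The edited gene had nearly the same level in both genotypes. Cyfip2 had 181 and 179 CPM in WT, against 173 and 170 CPM in KI. The log2 fold change (KI over WT) was -0.02 (SE 0.08, 95% interval -0.22 to 0.18), and the adjusted p from edgeR was 0.917. The raw CPM of both KI libraries were below those of both WT libraries, while the fitted difference, scaled by TMM factors, was near 0. Cyfip2 was tested in 13 of the 14 classes and called in 0, with adjusted p from 0.301 to 0.985. Counts per gene do not show a coding change, so they check the genotype labels in neither direction.

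Nipal4, which encodes a magnesium transporter of the skin barrier, is the closest member. Its level was 3.89 and 2.33 CPM in WT, against 4.04 and 1.85 CPM in KI. The groups overlap fully, and the replicate numbered 1 was the higher library in both genotypes. Oligodendrocytes held 50.5% of its UMIs but 12.0% of the nuclei. There it had 47.8 and 42.8 CPM in WT, against 44.8 and 26.4 CPM in KI, which is a log2 fold change of -0.20 (SE 0.26) at an adjusted p of 0.778. The libraries held 2039 and 1225 oligodendrocyte nuclei in WT and 2107 and 845 in KI, the same order as the Nipal4 level over all nuclei; the part of this in the level was not tested.

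Adam19, a membrane-anchored metalloprotease that sheds the ectodomains of growth factors, is next in distance. Over all nuclei it had 18.8 and 19.8 CPM in WT, against 14.0 and 18.9 CPM in KI, with a log2 fold change of -0.18 and an adjusted p of 0.496. Only KI replicate 1 stood below the others. Within cell classes the fitted value was below 0 in 7 of the 8 classes tested, and in all 8 with scaling by library totals, where DG granule neurons changed sign. KI lay below WT without overlap in 5 classes; over all genes and classes tested, 31.1% lay below WT without overlap. None of these differences was called. In oligodendrocytes Adam19 had 58.9 and 60.6 CPM in WT, against 30.4 and 33.3 CPM in KI. The log2 fold change of -0.84 had an SE of 0.19 and edgeR gave an adjusted p of 0.0922, beside 0.784% of genes called in that class. Over the alternatives other than leaving out a library, which left the direction as it was, the adjusted p ran from 0.0105 without the filter on low counts to 0.335 with nuclei gated individually, a fit that called 0 of 15680 genes (log2 -0.76). Leaving out a library gave 0.0156 without KI replicate 1, 9.1e-05 without KI replicate 2, 0.5003 without WT replicate 1 and 0.453 without WT replicate 2, at log2 values of -0.88 to -0.81. The fits of a single KI library, assumed to vary like WT, called 6.03% and 19.4% of all genes in this class, and those of a single WT library 0.312% and 0.772%. Without KI replicate 2, Adam19 was also called over all nuclei (33.2% of genes called) and in CA1 (42.3%) and CA3 neurons (26.6%).

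Other markers moved in the same oligodendrocytes. CA1 markers had 2190 to 2357 CPM in WT, against 1400 to 2032 CPM in KI, with 4 of 5 lower in both KI libraries. DG granule markers had 2086 to 2225 CPM against 1436 to 1961 CPM, with 3 of 6 lower. In WT the CA1 list had 2562 to 2718 CPM in CA1 neurons, and the DG list 2454 to 2563 CPM in DG neurons. At levels this close, the lists do not single out CA1 or DG cells among oligodendrocytes. Committed OPC markers had 613 to 622 CPM in WT, against 337 to 564 CPM in KI, with 3 of 6 lower, and astrocyte markers 420 to 459 CPM against 358 to 389 CPM, with 4 of 6 lower and 1 higher. Lists of some other cells were higher in KI. Mossy cell markers, of a class with high Adam19, had 20.4 to 23.4 CPM in WT, against 28.9 to 29.5 CPM in KI. OPC markers had 183 to 210 CPM against 221 to 233 CPM. In each of them 1 marker was higher and 1 lower in both KI libraries. Endothelial markers had 9.67 to 13.3 CPM against 14.0 to 32.1 CPM, with 3 of 6 higher. The oligodendrocyte list overlapped, at 9010 to 9259 CPM in WT, against 8668 to 10201 CPM in KI. None of these markers was at 0 in all libraries, and their part in the Adam19 level was not tested.

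The 2 clusters of oligodendrocytes gave different values. In the cluster that held mostly WT oligodendrocytes (2005, 1204, 37 and 177 nuclei in WT replicates 1 and 2 and KI replicates 1 and 2), Adam19 had 58.4 and 60.5 CPM in WT, against 57.1 and 53.8 CPM in KI. In the cluster of mostly KI nuclei (33, 21, 2069 and 666) it had 101 and 68.7 CPM in WT, against 29.99 and 29.2 CPM in KI. Inside the first cluster the genotypes were close, and inside the second they were far apart, with few WT nuclei behind the WT values. In subicular or cortical excitatory neurons Adam19 had 52.9 and 59.7 CPM in WT, against 30.3 and 37.9 CPM in KI, an adjusted p of 0.207. In OPCs (oligodendrocyte precursor cells) it had 33.8 and 34.4 CPM in WT, against 10.3 and 26.7 CPM in KI, from 7 to 21 UMIs per library, with an adjusted p of 0.358.

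Med7, a subunit of the Mediator complex that links transcription factors to RNA polymerase, hardly varied. Over all nuclei it had 10.8 and 10.2 CPM in WT and 10.6 CPM in both KI libraries, with a log2 fold change of 0.07 (SE 0.13). In CA1 pyramidal neurons it had 10.5 and 9.16 CPM in WT, against 11.7 and 13.2 CPM in KI. KI was the higher group there, but the log2 fold change of 0.42 had an adjusted p of 0.170. Lsm11, a component of the particle that trims the ends of histone transcripts, had 7.33 and 6.14 CPM in WT, against 6.17 and 6.79 CPM in KI. Thg1l, which adds a guanine to histidine transfer RNA, was the lowest member, with 2.08 and 2.63 CPM in WT, against 1.95 and 2.09 CPM in KI. It was tested in 4 classes, and Lsm11 in 6; neither was called, and both had fitted values on either side of 0.

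Clint1, which binds clathrin and sorts cargo between the Golgi and endosomes, had 94.1 and 92.8 CPM in WT, against 73.8 and 88.7 CPM in KI, an adjusted p of 0.388. Its fitted value was below 0 in 11 of the 13 classes tested. KI lay below WT without overlap in 9 of these and above it in 1, fibroblasts, against 31.1% of all genes lying below, and no class was called. The adjusted p ran from 0.272 to 0.974. Without KI replicate 2, Clint1 was called over all nuclei and in CA1, CA3 and DG granule neurons, where 33.2%, 42.3%, 26.6% and 45.7% of all genes were called in the same fits. KI replicate 1 was the lowest library in CA1, CA3, DG granule, inhibitory and mossy neurons, whereas KI replicate 2 lay closer to WT: in DG granule neurons the values were 87.8 and 88.8 CPM in WT, against 60.7 and 77.3 CPM in KI. The counts of 11 and 2 directions were the same with scaling by library totals. That scaling moved the median of all genes by -0.136 (log2) in DG granule neurons, -0.109 in OPCs, -0.106 in mossy cells, -0.136 in Cajal-Retzius cells and -0.168 in committed OPCs, and by under 0.1 in the other classes.

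Ebf1, a transcription factor known from B cells that also marks pericytes, was concentrated in mural cells, the pericytes and smooth muscle of vessels. There it had 1712 and 1943 CPM in WT, against 2514 and 1798 CPM in KI, from 57 to 97 UMIs per library. The groups overlapped, with KI replicate 1 the highest. Over all nuclei the same library was the highest (8.65 and 7.38 CPM in WT, 11.7 and 5.89 CPM in KI), and the fitted difference changed sign when it was left out. Ebf1 was called over all nuclei without KI replicate 2, where 33.2% of genes were. Without KI replicate 1 it was called in oligodendrocytes, where the remaining KI library held 0 Ebf1 UMIs (14 and 16 in WT) and 6.03% of genes were called, and in fibroblasts, where it held 16 (32 and 52 in WT) and 1.09% were called. In OPCs Ebf1 had 120 and 141 CPM in WT, against 74.7 and 72.03 CPM in KI. The groups did not overlap, and the log2 fold change was -0.72 (SE 0.22) at an adjusted p of 0.155 beside 0.683% of genes called. The share of OPC nuclei with an Ebf1 UMI was 21.1% and 20.7% in WT and 13.5% and 12.5% in KI; in oligodendrocytes it was 0% to 0.816%. Thinned to 1000 UMIs per nucleus the OPC shares were 13.6%, 10.9%, 6.46% and 6.06% in the same order. In the OPC nuclei the summed level of 6 OPC markers was 10894 to 11466 CPM in WT, against 9864 to 10092 CPM in KI, and 3 were lower and 1 higher in both KI libraries. That of 6 inhibitory neuron markers was 3197 to 3399 CPM in WT, against 4608 to 4765 CPM in KI (2 higher in both), and that of 6 mural markers, the class with the most Ebf1, was 8.45 to 14.7 CPM in WT, against 16.1 to 58.7 CPM in KI (1 higher in both). The inhibitory list had 6265 to 7742 CPM in WT inhibitory neurons, so in OPCs it does not single those cells out. No marker of these lists was at 0 in all libraries, and their part in the Ebf1 level was not tested.

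Havcr2, an inhibitory receptor known from T cells and expressed by microglia, had the largest fitted difference over all nuclei. It had 3.10 and 3.03 CPM in WT (240 and 221 UMIs) and 6.51 and 4.30 CPM in KI (475 and 348 UMIs). Both KI libraries were above both WT libraries, and KI replicate 1 stood farthest. The log2 fold change was 0.88 (SE 0.26), and edgeR gave an adjusted p of 0.132. DESeq2 gave 0.0372, and the range over the alternatives that kept all libraries was 0.0372 to 0.14. With a library left out the adjusted p was 0.00598 without KI replicate 2 (1.15 on the log2 scale, in a fit that called 33.2% of genes), 0.105 without KI replicate 1 (0.51), and 0.417 and 0.387 without WT replicates 1 and 2. Microglia had the highest level, with 193 and 182 CPM in WT, against 345 and 195 CPM in KI, from 28 to 132 UMIs per library. KI replicate 2 was near WT, and the log2 fold change of 0.61 (adjusted p 0.449) became 0.06 without KI replicate 1 and 0.88 (adjusted p 0.0210, 3.16% of genes called) without KI replicate 2. The cluster that held 238 of KI replicate 1's microglia, with 335 CPM there, held at most 10 nuclei of any other library. In the cluster that all libraries shared (244, 193, 35 and 106 nuclei in WT replicates 1 and 2 and KI replicates 1 and 2), Havcr2 had 197 and 184 CPM in WT, against 431 and 216 CPM in KI. Both KI libraries were above both WT libraries there, the higher of them from 35 nuclei.

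The microglia tested held 23.9% of the Havcr2 UMIs in the nuclei left after doublet and mitochondrial filtering, and the 14 classes together 43.3%. A further 24.8% lay in 4 clusters in which all 6 microglial markers were raised but which stayed unnamed, 3 for raised oligodendrocyte markers and 1 for its doublet score. The sum of these 4 had 63.6 and 101 CPM in WT, against 147 and 77.7 CPM in KI, with KI replicate 1 the highest and KI replicate 2 between the WT libraries. The largest share, 10.6%, came from a cluster of 3 and 3 WT and 244 and 7 KI nuclei, in which 120 of the 123 UMIs were from KI replicate 1.

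The share of tested microglia with a Havcr2 UMI was 21.3% and 22.5% in WT and 35.8% and 20.3% in KI, at median depths of 1166.5 to 1275.5 UMIs. Thinned to 500 UMIs per nucleus these shares were 11.2%, 10.5%, 13.7% and 8.47%. Oligodendrocytes, which should lack it, gave 0.245% to 0.712% at 1342 to 1477 UMIs. Markers of T cells were near 0 in the microglia: Cd3e, Cd3d and Cd3g were not seen in any library, and the summed level of 5 T cell markers was 14.4 to 21.4 CPM in WT, against 13.9 to 34.0 CPM in KI. The summed level of 6 microglial markers was 3533 to 3846 CPM in WT, against 3556 to 3949 CPM in KI. Other lists separated the genotypes in these nuclei: macrophage markers had 25.9 to 53.6 CPM in WT, against 0 to 13.1 CPM in KI, DG granule markers 1243 to 1322 CPM against 790.4 to 1018 CPM, CA1 markers 345 to 379 CPM against 202 to 283 CPM, and Cajal-Retzius markers 57.2 to 63.3 CPM against 139 to 285 CPM. In WT the DG list had 2454 to 2563 CPM in DG granule neurons, so it is not particular to them. The part of these lists in the Havcr2 level was not tested. In CA3 pyramidal neurons Havcr2 rested on 3 and 0 UMIs in WT and 11 and 8 in KI, with an adjusted p of 0.0932.

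**Figure D2:**
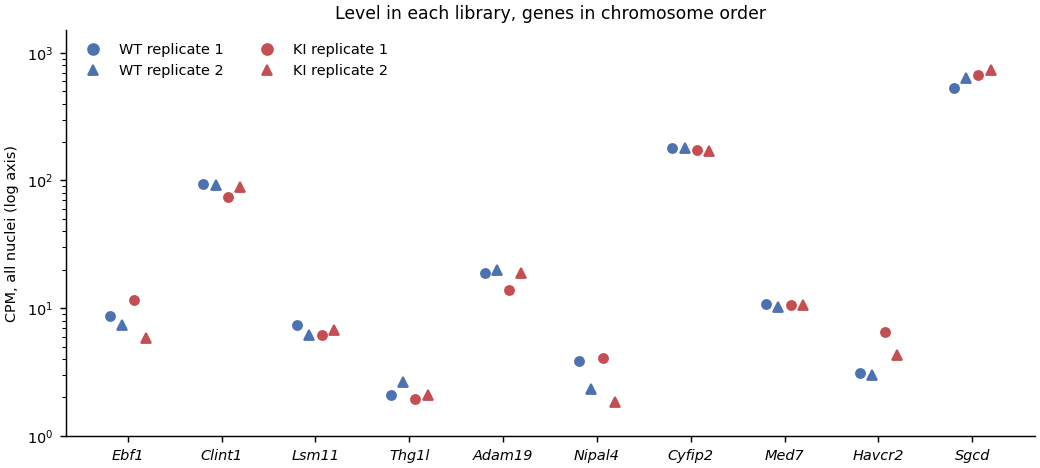
Each point is the level of a gene in 1 library over all nuclei, in CPM on a log axis, with genes in chromosome order from Ebf1 to Sgcd; blue marks WT, red marks KI, and the shape gives the replicate number. Sgcd spans 533 CPM in WT replicate 1 to 735 CPM in KI replicate 2, Havcr2 is higher in both KI libraries, and the Cyfip2 points sit together.

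Sgcd encodes delta-sarcoglycan, a transmembrane protein of the dystrophin-associated complex that ties the cytoskeleton to the extracellular matrix. It was the only member that was called in any class. Over all nuclei it had 533 and 636 CPM in WT, against 669 and 735 CPM in KI, which is a log2 fold change of 0.31 (SE 0.11) at an adjusted p of 0.159. Of the 126 pairs of a member and a class, 66 had enough counts to be tested, 2 were called, where 2.71% of all genes in these classes were, and 11 had an unadjusted p below 0.05, against 17.1% of all genes. The share of pairs called was near that of all genes. Both calls were Sgcd, in CA1 pyramidal neurons and in DG granule neurons, and they went in opposite directions. The other 12 classes held no call among the members. Over all genes, 2.54% were called in CA3 pyramidal neurons, 1.27% in mossy cells, 0.239% in subicular or cortical excitatory neurons, 0.225% in mural cells, 0.147% in microglia, 0.0189% in inhibitory neurons, 0.00928% in astrocytes and 0% in Cajal-Retzius cells, committed OPCs and fibroblasts.

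In CA1 pyramidal neurons, the output neurons of the hippocampus, Sgcd had 549 and 540 CPM in WT, against 1026 and 1150 CPM in KI. The WT libraries were nearly equal, and both KI libraries were far above them. Sgcd rose by 1.09 on the log2 scale (SE 0.08, 95% interval 0.90 to 1.27), and edgeR gave an adjusted p of 0.00139. In this class 8.27% of the genes were called, 5.22% higher in KI, and 1 of the 8 members tested was called. Of the calls, 63.1% were higher in KI, and 50.2% with scaling by library totals. Leaving out each library in turn kept the call, at 1.05 to 1.11. The share of CA1 nuclei with an Sgcd UMI was 80.5% and 83.1% in WT and 95.8% and 95.5% in KI, and after thinning to 2000 UMIs 59.7%, 56.8%, 78.5% and 83.8%. Oligodendrocytes, the class set beside them as a background, gave 14.0% to 16.7% at median depths of 1342 to 1477 UMIs, against 4954.5 to 6990 in CA1, and 15.1% to 21.9% after thinning to 2000.

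At 2 times the resolution, the CA1 nuclei fell mainly into 2 clusters, and both showed the difference. In the cluster of mostly WT nuclei (1943, 1353, 708 and 1044 nuclei) Sgcd had 565 and 547 CPM in WT, against 1005 and 1210 CPM in KI. In that of mostly KI nuclei (72, 60, 887 and 688) it had 272 and 371 CPM in WT, against 1037 and 1096 CPM in KI. The second had 2 of the 5 CA1 markers raised and would not have been named by the rule had it stood alone. A further cluster held 265 and 227 nuclei in WT but 1 and 4 in KI, too few to compare the genotypes there. When nuclei were instead gated individually by their marker UMIs, the CA1 values were 645 and 822 CPM in WT, against 1074 and 1182 CPM in KI, and the call was lost (0.68, adjusted p 0.0801, in a fit that called 87 of 15797 genes; the range over all alternatives, each library left out included, was 1.73e-17 to 0.0801). Of the gated nuclei, 76.4% and 53.8% in WT and 60.8% and 44.5% in KI lay in the CA1 clusters. For those that lay in both, a choice made after the data had been seen, the values were 571 and 570 CPM against 1070 and 1182 CPM, with an adjusted p of 0.000567.

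Markers of other cells also moved in the CA1 nuclei. The summed level of 6 subicular or cortical markers, the class in which Sgcd is highest, was 112 to 122 CPM in WT, against 81.6 to 104 CPM in KI. That of 6 endothelial markers was 18.8 to 19.8 CPM in WT, against 42.2 to 55.8 CPM in KI, and that of 6 OPC markers, the class with the second highest Sgcd, was 589 to 595 CPM and 515 to 674 CPM. Single markers went both ways: 2 endothelial markers were higher in both KI libraries and 1 lower in both, against 2 and 3 for subicular or cortical cells and 1 and 1 for OPCs. The summed level of 6 astrocyte markers was 132 to 143 CPM in WT, against 81.2 to 90.6 CPM in KI, and 5 of the 6 were lower in both KI libraries. The lists of CA3 cells (317 to 324 CPM against 253 to 286 CPM) and inhibitory neurons (77.8 to 102 CPM against 60.7 to 75.8 CPM) were also lower in KI, and the CA1 list overlapped (2562 to 2718 CPM against 2039 to 2752 CPM), with 3 of its 5 markers lower in both KI libraries. No marker of these lists was at 0 in all libraries. The part of other cells in the Sgcd difference was not tested.

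**Figure D3:**
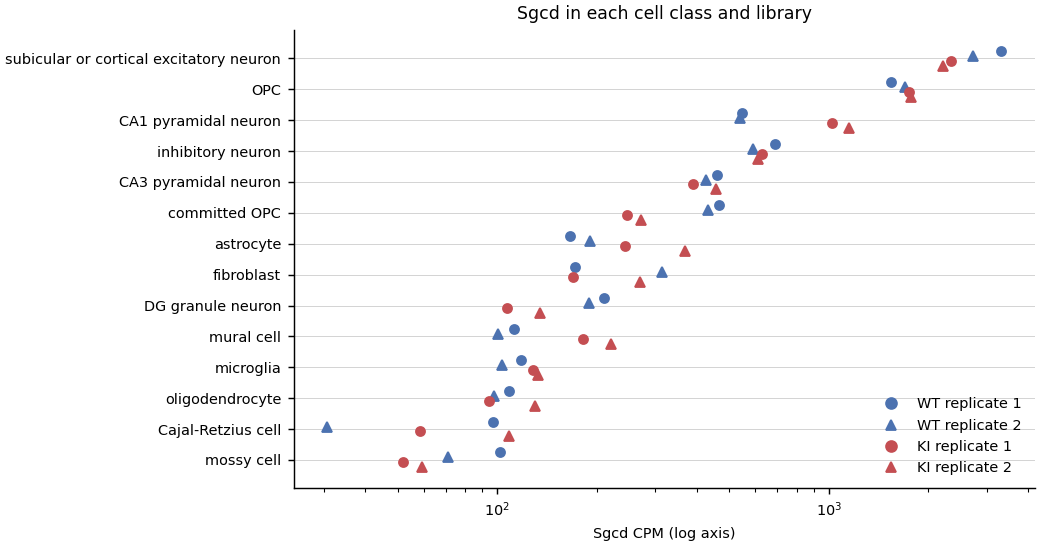
Each point is Sgcd in 1 library and cell class, in CPM on a log axis, with classes ordered by the mean of 4 libraries, WT in blue and KI in red. The KI points lie above WT in CA1 pyramidal neurons (1026 and 1150 against 549 and 540 CPM) and below WT in DG granule neurons (107 and 135 against 210 and 188 CPM), and they mix in CA3 and inhibitory neurons.

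In DG granule neurons, which relay input from the entorhinal cortex, Sgcd had 210 and 188 CPM in WT, against 107 and 135 CPM in KI. Both KI libraries were below both WT libraries. Sgcd fell by 0.59 on the log2 scale (SE 0.12), with an adjusted p of 0.0349, in a class where 9.64% of genes were called and 4.88% called lower in KI. Of the calls in DG, 49.4% were higher in KI, and 33.2% with scaling by library totals. The call was lost without either WT library and kept without either KI library. Without WT replicate 1 the adjusted p was 0.357, and without WT replicate 2 it was 0.203, in fits that called 1.42% and 1.43% of genes, while the log2 fold change ran from -0.73 to -0.46 over the libraries left out. With nuclei gated individually the values were 263 and 240 CPM in WT, against 201 and 218 CPM in KI (-0.15, adjusted p 0.349), and among nuclei both gated and in the DG clusters the log2 fold change was -0.62 (adjusted p 0.0234).

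The 2 DG clusters gave different answers. In the cluster of mostly WT nuclei (4053, 3081, 197 and 520 nuclei) Sgcd had 212 and 191 CPM in WT, against 201 and 207 CPM in KI, with the genotypes mixed. In the cluster of mostly KI nuclei (236, 203, 2272 and 1692) it had 171 and 153 CPM in WT, against 98.4 and 112 CPM in KI. The share of DG nuclei with an Sgcd UMI was 44.1% and 45.3% in WT and 32.3% and 34.4% in KI. Thinned to 2000 UMIs these became 29.0%, 27.0%, 17.5% and 20.3%, while oligodendrocytes at that depth gave 15.1%, 15.6%, 16.9% and 21.9%. Thinning left out 708 to 1711 oligodendrocytes per library, and the highest value rests on the 137 that remained in KI replicate 2. The thinned KI shares of DG lay above 3 of these values and below that one, and the thinned WT shares lay above all 4.

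Marker levels differed in the DG nuclei as well. The summed level of the 6 DG granule markers was 2454 to 2563 CPM in WT, against 1903 to 2314 CPM in KI. That of 6 CA3 markers was 411 to 429 CPM in WT, against 544 to 578 CPM in KI, that of 5 CA1 markers 416 to 437 CPM and 480 to 509 CPM, and that of 5 mossy cell markers 76.7 to 87.7 CPM and 103 to 122 CPM. Single markers went both ways in each list: 3 CA3 markers were higher in both KI libraries and 2 lower in both, against 1 and 2 for CA1, 2 and 2 for mossy cells, and 1 and 2 for DG granule cells. Markers of subicular or cortical neurons and of OPCs, where Sgcd was highest, overlapped between the genotypes. No marker of these 6 lists was at 0 in all libraries, and their part in the Sgcd difference was not tested.

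**Figure D4:**
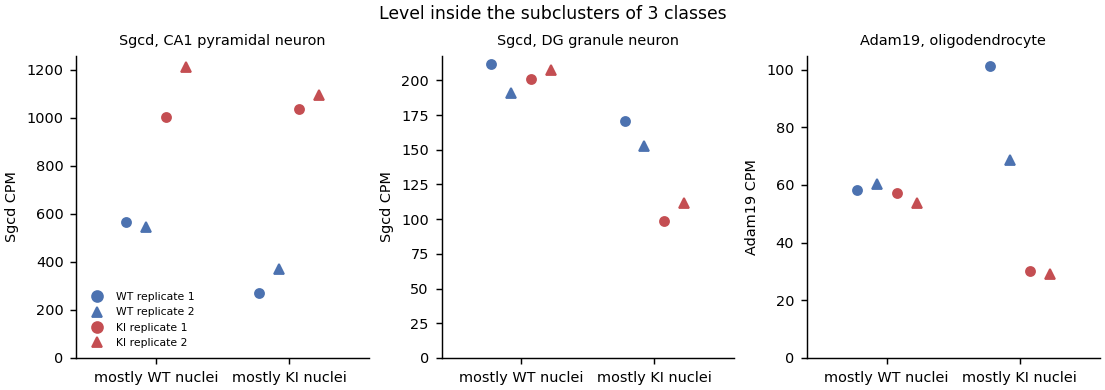
Points give the CPM of 1 library inside the clusters that make up a class, for Sgcd in CA1 and DG neurons and Adam19 in oligodendrocytes; a cluster is drawn where KI had at least 100 nuclei, axes start at 0, WT is blue and KI is red. Sgcd is higher in KI in both CA1 clusters drawn. In DG and for Adam19 the genotypes meet in the cluster of mostly WT nuclei and part in that of mostly KI nuclei.

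The direction of the Sgcd difference depended on the class. The genotype effect in CA1 exceeded that in DG by 1.67 on the log2 scale (SE 0.10), with an adjusted p of 8.3e-07 for the class-by-genotype term in edgeR, with the library as a block. Of 84 tested combinations of a member and a pair of classes, 7 were called, and all 7 were Sgcd. Over all genes 13.5% were called between CA1 and DG. The effect in CA3 minus that in CA1 was -1.08 (3.62% of genes called for that pair), that in inhibitory neurons minus CA1 was -1.02 (2.19%), and that in oligodendrocytes minus CA1 was -0.92 (2.07%). Set against DG, the effect was higher by 0.60 in CA3 (9.64% of genes called), by 0.66 in inhibitory neurons (4.66%) and by 0.72 in oligodendrocytes (2.86%). In the other 3 pairs no member was called; 0.674% of genes were called between inhibitory neurons and CA3, 0.931% between oligodendrocytes and CA3, and 0.61% between oligodendrocytes and inhibitory neurons. Adjusted p-values for the 6 terms other than CA1 against DG ran from 3.9e-08 to 0.0301. The inhibitory class pools several clusters, and 1 of them held 431 and 29 nuclei in WT and 197 and 460 in KI. The terms share classes and are not independent of each other. Their small p-values also draw on variance pooled over all genes, and only 2 mice per genotype stand behind them.

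In the remaining classes Sgcd did not pass the test; its fitted value was above 0 in 8 and below 0 in 5 of the 13 classes tested, and in 6 and 7 with scaling by library totals, where CA3 and inhibitory neurons changed sign. CA3 pyramidal neurons had 459 and 428 CPM in WT, against 389 and 456 CPM in KI, and inhibitory neurons 690 and 592 CPM in WT, against 631 and 614 CPM in KI. Both sets of groups overlapped. Subicular or cortical excitatory neurons, where the gene was highest, had 3309 and 2717 CPM in WT, against 2340 and 2218 CPM in KI. The log2 fold change was -0.36, at an adjusted p of 0.375. This class also pools clusters, and 1 of them held 99 and 485 nuclei in WT and 295 and 587 in KI. Astrocytes had 166 and 191 CPM in WT, against 242 and 369 CPM in KI, with a log2 fold change of 0.82 and an adjusted p of 0.270. Leaving out a library, the adjusted p in astrocytes was 0.000200 without KI replicate 1 (2.79% of genes called), 0.191 without KI replicate 2, 0.9995 without WT replicate 1 and 0.941 without WT replicate 2, at log2 values of 0.53 to 1.06. OPCs had 1541 and 1699 CPM in WT, against 1743 and 1766 CPM in KI, at an adjusted p of 0.477.

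**Figure D5:**
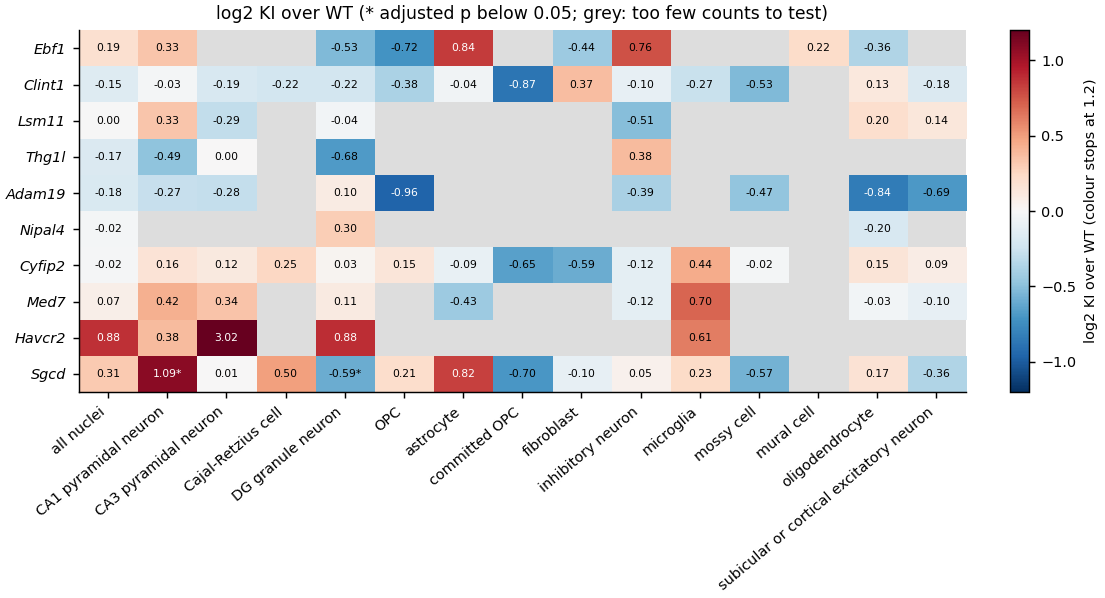
Each cell gives the log2 KI over WT of a gene (rows, in chromosome order) in all nuclei or in a class (columns), red higher and blue lower in KI, grey where counts were too few to test. Asterisks stand at Sgcd in CA1 (1.09) and DG (-0.59) and nowhere else, and the dark cell of Havcr2 in CA3 rests on 3 WT UMIs.

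The order of each member's levels over the classes is given as a description. Havcr2 was highest in microglia (229 CPM, mean of 4 libraries, and 111 CPM with nuclei gated individually), and its range did not overlap that of the next class. Nipal4 was highest in oligodendrocytes (40.4 CPM, and 24.9 CPM when gated), again without overlap with the next. Sgcd was highest in subicular or cortical excitatory neurons (2646 CPM, and 1410 CPM when gated), followed by OPCs (1687 CPM) and CA1 pyramidal neurons (816 CPM). The ranges of these neighbours did not overlap, whereas CA1 overlapped inhibitory neurons. The place of CA1 rests on KI (1026 and 1150 CPM). In WT it had 549 and 540 CPM, below inhibitory neurons (690 and 592 CPM). Clint1 was highest in fibroblasts (266 CPM) and microglia (227 CPM), which overlapped. Adam19 lay at 43.3 to 45.8 CPM in mossy cells, subicular or cortical neurons and oligodendrocytes, which overlapped, and at 4.14 CPM in astrocytes. Among classes with over 100 UMIs, Lsm11 was highest in CA3 pyramidal neurons (17.0 CPM, SD 2.86) and lowest in DG granule neurons (2.25 CPM, SD 0.34).

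By Pearson's r of log2(CPM + 1) over the 14 class means, among 14741 genes, the patterns most like Havcr2 were those of Runx1 (0.98), Il10ra and Tbxas1. For Nipal4 they were Gm13905 (0.97), Tnni1 and Gm48508, and for Ebf1 Cgrrf1 (0.94), Grsf1 and Plekhg2. For Sgcd they were 4930527B05Rik (0.84), 4930588J15Rik and Dzip1, and for Adam19 Zfp704 (0.79), Slf1 and Spock1. Clint1 was most like Gm10974 (0.93), Rin3 and Gm44752, Med7 most like 0610010K14Rik (0.94), Ddx54 and Med28, and Lsm11 most like Susd6 (0.83), Trpm4 and Fam241a. Thg1l stayed under 10 CPM in every class and was given none. The points share the 4 libraries, and small classes weigh as much as large ones.

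The members are a part of the genes around Cyfip2, so all genes within 1 Mb were taken by position. There are 27, of which 8 are members and 19 are not, and 20 of the 27 passed the filter on low counts over all nuclei. Of these 20, 0 were called over all nuclei. None of the 19 other genes was called in any class. Within 1 Mb, 1 of 10 tested genes was called in CA1 and 1 of 10 in DG, both times Sgcd. In the band from 2 to 5 Mb the share called was 14.3% in CA1 (6 of 42) and 17.8% in DG (8 of 45), and from 5 to 10 Mb it was 10.9% (7 of 64) and 7.69% (5 of 65). Over chromosome 11 it was 6.66% in CA1 (79 of 1187) and 7.67% in DG (94 of 1225), beside 8.27% and 9.64% of all genes. These shares are descriptions without a test. Among the other genes with the highest levels in the window were Fndc9 and Gm4926. Gm4926 was near the floor, at 0.79 and 0.82 CPM in WT, against 1.40 and 0.82 CPM in KI. Fndc9, which lies inside Cyfip2 on the opposite strand, had 152 and 156 CPM in WT, against 113 and 146 CPM in KI (adjusted p 0.345).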

How the data were processed

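Single nuclei from the hippocampi of 2 WT and 2 KI mice were profiled with a droplet method that primes at the poly-A tail. Per the file headers the matrices came from Cell Ranger 7.0.1, and the submitters' processing notes name the build mm10; neither the annotation nor whether introns were counted is given in the sources used here. The deposited values are raw UMI counts per gene and barcode, as the authors' program wrote them, with no normalization. GENCODE M21 on GRCm38 gave positions and overlaps for 32235 of the 32285 gene IDs.

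Barcodes with at least 500 genes were summed per library. For cell classes, barcodes with over 5% mitochondrial UMIs were removed first. A further 3279 with a doublet score over 0.25 (simulation in scanpy 1.11.5, expected rate 0.08) were then removed. The 2000 most variable genes, without the members and Cyfip2, gave 30 components, from which leidenalg 0.10.2 built clusters (20 neighbours, resolution 0.5). Naming a cluster took 3 or more markers of that class at 2 times the level elsewhere. Limits on doublet score (median over 0.14), on a second class with 90% of the markers raised and on leading genes, and the splitting of 4 clusters, were set after clusters had been seen and before members were tested; 11456 nuclei stayed unnamed, endothelial cells among them. These names may not match the study's own.

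Sums were tested in R 4.3.3 by the quasi-likelihood test of edgeR 4.0.16 after filterByExpr and TMM scaling, with Benjamini-Hochberg adjustment over all genes of a class, threshold 0.05. Nuclei were not used as replicates; the study tested single nuclei. An exact permutation test of 2 against 2 libraries cannot go below 0.333 and was not used. CPM are raw counts over the class total of the library. Alternatives were scaling by library totals, DESeq2 1.42.0, no filter, other nuclei or classes, a replicate block and leaving out each library. Intervals of 95% come from the fit, whose degrees of freedom add a share pooled over all genes to those of the libraries. The tests were tried on simulated counts. All members and Cyfip2 were named, with up to 5 other genes within 1 Mb that were called, otherwise the 3 with the highest level (1 of these is not reported here), and the 3 genes most like each member with at least 10 CPM in a class. The members and lists were chosen with earlier results of these data known. Same-numbered libraries did not deviate together (r = 0.028 across genes), so numbers pair no libraries.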

Additional observations from a re-analysis of the deposited data

Results flagged for a closer look

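The genotype effect on Sgcd, the delta-sarcoglycan gene, differed between cell classes in 7 of the 10 pairs of classes compared, by a test of the difference between classes in edgeR. As log2 values, the effect in CA1 pyramidal neurons minus that in DG granule neurons was 1.67, that in CA3 minus CA1 was -1.08, that in inhibitory neurons minus CA1 was -1.02, and that in oligodendrocytes minus CA1 was -0.92. The effect in CA3 minus that in DG was 0.60, that in oligodendrocytes minus DG was 0.72, and that in inhibitory neurons minus DG was 0.66. Each pair that was called holds CA1 or DG, the classes in which Sgcd was called. Over all genes, 2.07% to 13.5% were called in these pairs. With nuclei gated individually, the Sgcd log2 fold change was 0.68 in CA1 and -0.15 in DG, and it was called in neither.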

How the results depend on the processing

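Over all nuclei the number of members called was 0 in the analysis reported, 1 with DESeq2 (Havcr2), and 0 to 4 when a library was left out, the 4 being Adam19, Clint1, Ebf1 and Havcr2 without KI replicate 2, where the lone KI library is assumed to vary like WT and 33.2% of all genes were called. Within classes 2 calls (2.71% of all genes called) became 4 without a filter on low counts (3.37%; Adam19 in oligodendrocytes and Havcr2 in CA3 were added), 0 with nuclei gated individually (1.65%), and 1 to 9 when a library was left out (1 without either WT library, 6 without KI replicate 1, 9 without KI replicate 2, fits in which 0.899%, 1.17%, 7.48% and 17.5% of all genes were called over the classes, without WT replicates 1 and 2 and KI replicates 1 and 2). For the window around Cyfip2, 0 genes called within 1 Mb became 1 of 92 within 5 Mb, 1 of 171 within 10 Mb and 13 of 1577 over chromosome 11 (0.824%, beside 0.771% of all genes), and 0 to 8 when a library was left out, the 8 without KI replicate 2. Gated individually, the highest level was 1410 CPM for Sgcd in subicular or cortical neurons, 111 CPM for Havcr2 in microglia and 24.9 CPM for Nipal4 in oligodendrocytes; the cause was not tested. The gate gave no value for mural cells and fibroblasts, which held under 20 gated nuclei in a library. Directions turned for values near 0: with the replicate block, which the numbers do not support as a pairing, Lsm11 was 0.000407 (log2). The block changed no call among the members. Over all genes it called 8.91% in all nuclei and 5.04% over the classes, beside 0.771% and 2.71% without it. With a library left out the log2 fold change over all nuclei ran from -0.14 to 0.12 for Lsm11, from -0.43 to 0.61 for Ebf1, from -0.73 to 0.44 for Nipal4 and from -0.063 to 0.0066 for Cyfip2. Of 281 alternative values, 232 kept their direction and side of the threshold. Low counts limit Thg1l in all classes (tested in 4 of 14), and Nipal4 and Havcr2 outside their main classes. Most of these pairs could not be tested.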
